A study of Mus musculus with 18 samples.

Results

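Superoxide dismutases, catalase, peroxiredoxins and the thioredoxin inhibitor Txnip were examined in the liver of mice given asparaginase (ASNase). The set comprised 10 genes, chosen by their names in the expression table: Sod1, Sod2, Sod3, Cat, Prdx2, Prdx3, Prdx4, Prdx5, Prdx6 and Txnip. Each name matched 1 of the 37303 genes in the table, and each gene had a usable estimate in all 6 groups. RNA-Seq was performed on poly-A RNA from 18 livers, 9 of male and 9 of female mice on the C57BL/6J background. WT mice, mice with homozygous deletion of Gcn2 (Gcn2-/-) and mice with homozygous deletion of Atf4 (Atf4-/-) were each injected with PBS or with ASNase, 3 mice per group. ASNase is an enzyme drug that depletes blood asparagine and glutamine, and it was injected into the abdomen once a day at 3 IU per gram body weight, 8 times in all, with an equal volume of PBS in the controls. Livers were collected 7.5 h after the last injection. By the labels the mice were 8 to 16 weeks old, whereas the design text gives 8 to 12 weeks, and the background had been bred for at least 8 generations. Of the 3 mice per group, 1 was male in WT PBS, Gcn2-/- PBS and Gcn2-/- ASNase, and 2 were male in WT ASNase, Atf4-/- PBS and Atf4-/- ASNase. Both genes were deleted throughout the body, not in the liver alone, and loss of Atf4 is known to impair the lens, the skeleton and red cell formation.

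Superoxide dismutases convert superoxide to hydrogen peroxide in the cytosol (Sod1, with copper and zinc), in mitochondria (Sod2, with manganese) and outside the cell (Sod3). Catalase, encoded by Cat, breaks down hydrogen peroxide in peroxisomes, which are abundant in hepatocytes. Peroxiredoxins reduce peroxides through a reactive cysteine and are mostly recharged by thioredoxin, whereas Txnip, an alpha-arrestin, binds thioredoxin and limits glucose uptake. The kinase GCN2 (gene Eif2ak4) senses amino acid shortage and raises translation of the transcription factor ATF4.

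The table gave 1 FPKM, a read count scaled to transcript length and library size, per group, estimated from its 3 libraries together, with a lower and an upper bound. There was therefore no spread between mice, no p-value could be computed, and no difference below has a replicate check. The depth of single libraries is unknown from the table. Among genes with FPKM over 3 the upper bound lay a median of 51.3% to 54.2% above the value. Because of the scaling to length, levels of different genes may be set side by side. The targeted genes were read first. Eif2ak4 was at 3.04, 2.39, 2.31, 2.96, 2.19 and 3.14 FPKM in WT PBS, WT ASNase, Gcn2-/- PBS, Gcn2-/- ASNase, Atf4-/- PBS and Atf4-/- ASNase, so the groups labelled Gcn2-/- lay within the range of the rest. Atf4 was at 50.4, 63.1, 60.0, 68.1, 32.3 and 29.3 FPKM in that order, lowest in both groups labelled Atf4-/-. A value for a whole gene does not show the loss of a part of it, and all strain names below, with every direction drawn from them, are those of the labels. The paper reports, from read density, loss of a Gcn2 exon in Gcn2-/- mice and of Atf4 in Atf4-/- mice. It also measured Atf4 by RT-qPCR and genotyped the mice by PCR on ear DNA. The tissue was checked against 8 hepatocyte markers. Of these, 6 had estimates in all groups, with summed levels of 7484 to 18436 FPKM, whereas Alb had no estimate in any group. Markers of other tissues differed between groups. Summed over 14 genes, skeletal muscle markers were at 1049 and 1482 FPKM in the WT groups, 10.8 and 12.9 in Gcn2-/- and 87.9 and 196 in Atf4-/-. Summed over 7 genes, lung markers were at 136 FPKM in WT PBS and 1.19 to 3.19 elsewhere. Summed over 10 genes, acinar markers of the pancreas reached 258 FPKM in Atf4-/- ASNase and 57.5 in WT ASNase and were at 5.45 to 15.8 elsewhere. Summed over 5 genes, adipose markers were at 10.2 to 13.7 FPKM in WT and 0.588 to 3.58 in the knockouts. The part of these tissues in the results was not tested.

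Promoters from RefSeq (build GRCm38.p6) were matched by symbol for 8 of the 10 genes, and 4 are printed here as the 250 bases upstream of the annotated start. Cat is shown because its level differed most between groups, Txnip because its glucose-response half-sites belong with the arrestin genes described later, and Sod1 and Prdx4 because each holds a searched motif. All are written 5′ to 3′ on the strand of the gene. Capitals mark CACGAG in Txnip (chr3:96557707-96557956, plus strand), CCAAT or its complement ATTGG in Cat (chr2:103485154-103485403, minus strand), CACGTG in Prdx4 (chrX:155338461-155338710, minus strand) and the complement of TGACNNNGC in Sod1 (chr16:90220512-90220761, plus strand). The RefSeq starts of Sod1, Cat and Prdx4 differ from the GENCODE gene ends given further on.
Txnip: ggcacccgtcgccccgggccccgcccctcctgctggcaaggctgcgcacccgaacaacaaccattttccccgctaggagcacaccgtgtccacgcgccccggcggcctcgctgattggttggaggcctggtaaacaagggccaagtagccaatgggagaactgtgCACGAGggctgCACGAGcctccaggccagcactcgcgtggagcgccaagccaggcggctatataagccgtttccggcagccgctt
Cat: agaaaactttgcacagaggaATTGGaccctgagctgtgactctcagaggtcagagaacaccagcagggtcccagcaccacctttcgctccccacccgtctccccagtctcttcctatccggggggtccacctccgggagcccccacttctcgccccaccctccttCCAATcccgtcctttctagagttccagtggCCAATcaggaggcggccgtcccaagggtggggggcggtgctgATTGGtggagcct
Prdx4: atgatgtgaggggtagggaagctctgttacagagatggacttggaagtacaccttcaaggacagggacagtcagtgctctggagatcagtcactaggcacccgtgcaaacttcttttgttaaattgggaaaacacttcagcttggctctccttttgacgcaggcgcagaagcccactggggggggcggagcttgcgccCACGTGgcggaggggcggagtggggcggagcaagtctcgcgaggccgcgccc
Sod1: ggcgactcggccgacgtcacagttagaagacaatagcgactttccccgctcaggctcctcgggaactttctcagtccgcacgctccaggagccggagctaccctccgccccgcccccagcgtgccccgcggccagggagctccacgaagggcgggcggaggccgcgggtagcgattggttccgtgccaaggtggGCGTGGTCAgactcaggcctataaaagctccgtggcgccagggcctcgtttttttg

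The 32851 promoters of the RefSeq table were searched on both strands over the same 250 bases. CACGAG, the half-site of the carbohydrate response element as it stands at Txnip, was found in 5.37% of all promoters. Among the 8 genes it was in Txnip only, with its first bases at -85 and -74 from the start, both on the plus strand and 5 bases apart. At least 2 copies were present in 0.262% of promoters, and the same pair with this spacing was found in 1 promoter, that of Txnip. The letters and the spacing were those of Txnip, so its own match was fixed in advance. Pairs of other half-sites were not searched. The E-box CACGTG was in 6.02% of promoters and, of the 8, in Prdx4 at -52. The antioxidant response element core TGACNNNGC was in 10.2% of promoters and, of the 8, in Sod1 at -56 on the minus strand. The C/EBP-ATF element TGATGNAA (3.45% of promoters), the NF-kB site GGNNTTTCC (4.93%) and a direct repeat of the nuclear receptor half-site AGGTCA with 1 base between (0.0335%) were in none of the 8. The CCAAT box, searched after the sequences had been seen, was in 33.8% of promoters and in 5 of the 8, at -230, -85, -55 and -13 in Cat. The GC box GGGCGG, also searched after the sequences had been seen, was in 32.7% of promoters and in 7 of the 8, all but Prdx2. No match of another motif overlaps the printed capitals, and a match describes letters only.

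The genes lie on 9 chromosomes of GRCm38 by the GENCODE M21 annotation, and all are protein coding. Sod1 is at chr16:90220754-90226329, Sod2 at chr17:13006846-13040063, Sod3 at chr5:52363791-52371418, Prdx2 at chr8:84969587-84974834 and Txnip at chr3:96557957-96561883, all on the plus strand. Cat is at chr2:103453849-103485160, Prdx3 at chr19:60864051-60874556, Prdx4 at chrX:155323918-155340754, Prdx5 at chr19:6906697-6910106 and Prdx6 at chr1:161240112-161251219, all on the minus strand. Of them, Txnip, Prdx2, Prdx5 and Sod1 share bases with a gene of the other strand. The kit used does not mark the strand, so reads from shared bases cannot be told apart. Txnip lies wholly within the antisense gene Gm15441, which was at 0.0688 to 0.5 FPKM. Prdx2 shares 351 bases with Junb and 181 with Rnaseh2a, Prdx5 shares 409 with Trmt112, and Sod1 shares 650 with Scaf4. Junb was at 49.0 FPKM in Gcn2-/- ASNase and 92.6 in Atf4-/- ASNase, against 12.7 to 20.7 in the other groups, and its part in the value of Prdx2 was not tested. The copies Prdx6b, Prdx6-ps2 and Prdx2-rs3 were listed at 0 in every group except Prdx6b in WT PBS (0.00491 FPKM), and reads shared with them could have been split by the counting.

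Sod1 and Cat were the most abundant of the 10 mRNAs. The median over the 6 groups was 1274 FPKM for Sod1, 933 for Cat, 354 for Prdx5, 313 for Prdx6, 119 for Prdx2, 103 for Prdx4, 85.6 for Prdx3, 46.5 for Sod2, 38.1 for Txnip and 9.5 for Sod3. In WT PBS, Sod1 ranked at place 53 and Cat at place 66 of 37268 genes with an estimate. Between the highest and the lowest group, Cat differed 5.45-fold, Txnip 2.98-fold, Sod2 2.82-fold, Prdx6 2.45-fold, Prdx4 2.17-fold and Sod3 2.05-fold. Sod1, Prdx3, Prdx2 and Prdx5 differed by 1.51 to 1.93-fold. The lowest group was Atf4-/- ASNase for Sod1, Sod3, Cat, Prdx2, Prdx4, Prdx5 and Prdx6. Intervals were wide, and of 150 pairs of groups, 15 for each gene, 1 pair had separate intervals (Sod2 in Gcn2-/- ASNase against Atf4-/- PBS). The share of all genes over the same 15 pairs was not computed, so this count has no background beside it. Neighbours in the order of levels had overlapping intervals for each of the 10 genes.

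**Figure D1:**
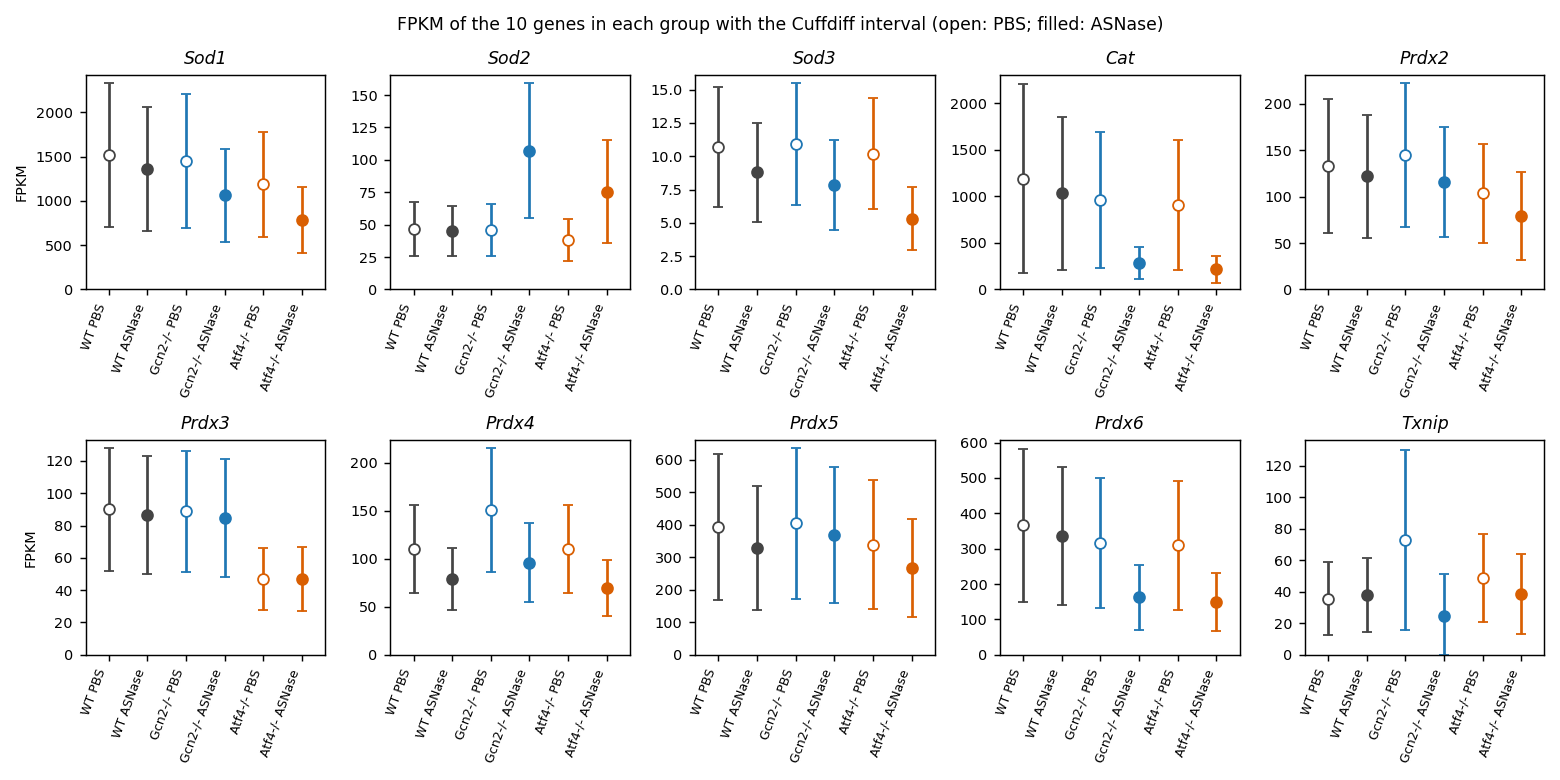
FPKM (y axis, linear from 0) of the 10 genes in the 6 groups (x axis); points are the group values, bars the Cuffdiff interval, open points PBS and filled points ASNase, grey WT, blue Gcn2-/- and orange Atf4-/-. Cat and Prdx6 are lowest in the 2 knockout groups given ASNase, where Sod2 is highest (107 and 75.4 FPKM), and Prdx3 is lowest in both Atf4-/- groups.

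Groups were compared in 9 pairs on log2(FPKM + 0.1), a scale that understates changes of low genes. A gene was called when its intervals were separate and it differed by over 1.5 on the log2 scale, with FPKM over 3 in either group. None of the 10 genes was called in any of the 9 comparisons. Nor did any have separate intervals. A wider rule asked whether the log2 difference was larger than the combined error, the root of the summed squares of the errors of both values. The error of a value was its distance to the upper bound, divided by FPKM + 0.1 and by ln 2. This is wider than the distance to the upper bound read on the log2 scale, but narrower than that to the lower bound. The rule is therefore lenient where a high value with wide bounds is set against a lower value. Such a high value was that of Cat in Gcn2-/- PBS, at 961 FPKM (interval 234 to 1688). The 9 comparisons share groups with each other, so their counts are not independent.

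After ASNase, Sod2 was higher and Cat lower than under PBS in both knockout strains, while neither difference exceeded its error in WT liver. In WT, 0.881% of 9084 eligible genes were called, 1.01% had separate intervals and 1.97% exceeded the combined error, against 0 of the 10 genes by each rule. In Gcn2-/-, 3.69% of 9218 were called, 4.24% had separate intervals and 11.0% exceeded the combined error, against 2 of the 10 (Sod2 and Cat). In Atf4-/-, 7.37% of 9485 were called, 8.03% had separate intervals and 18.2% exceeded the combined error, against 3 of the 10 (Sod2, Sod3 and Cat). Over the 10 genes the log2 difference had a median of -0.14 for WT, of -0.46 for Gcn2-/- and of -0.49 for Atf4-/- livers, beside -0.01, 0.02 and 0.08 for all eligible genes. Lower values after ASNase were found for 9 of 10 genes in WT, 9 in Gcn2-/- and 8 in Atf4-/-, where Prdx3, at a log2 difference of 0.00, turned from higher to lower with median-ratio scaling. The sets of genes beyond the combined error were thus 2 and 3 of 10 where 11.0% and 18.2% of all genes were.

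**Figure D2:**
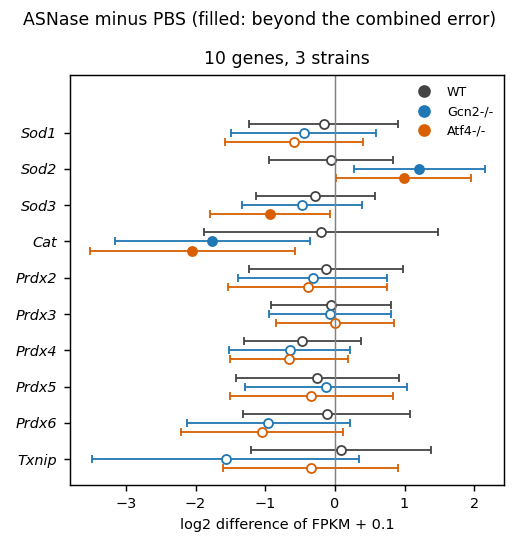
Log2 difference of FPKM + 0.1, ASNase minus PBS (x axis), for the 10 genes (y axis) in WT (grey), Gcn2-/- (blue) and Atf4-/- (orange); bars are the combined error, and filled points lie beyond it. Sod2 lies right of 0 in both knockout strains (1.21 and 0.99) and Cat left of 0 (-1.76 and -2.05), and no WT point is beyond its error.

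Under PBS, Prdx3 alone of the 10 genes differed between strains beyond the combined error, while Txnip, with wider bounds, was at 2.05-fold of WT in Gcn2-/- within its error. In Gcn2-/- against WT under PBS, 1.04% of 8920 genes were called, 1.20% had separate intervals and 2.68% exceeded the combined error, against 0 of the 10 genes. In Atf4-/- against WT under PBS, 1.12% of 9039 were called, 1.28% had separate intervals and 2.64% exceeded the combined error, against 1 of the 10 (Prdx3). In Atf4-/- against Gcn2-/- under PBS, 0.976% of 9015 were called, 1.25% had separate intervals and 3.00% exceeded the combined error, against 1 of the 10 (Prdx3 again). Under ASNase more genes stood apart. In Gcn2-/- against WT, 4.41% of 9423 were called, 4.87% had separate intervals and 11.4% exceeded the combined error, against 2 of the 10 (Sod2 and Cat). In Atf4-/- against WT, 8.25% of 9577 were called, 9.01% had separate intervals and 18.9% exceeded the combined error, against 3 of the 10 (Cat, Prdx3 and Prdx6). In Atf4-/- against Gcn2-/-, 3.19% of 9355 were called, 3.61% had separate intervals and 9.74% exceeded the combined error, against 0 of the 10.

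**Figure D3:**
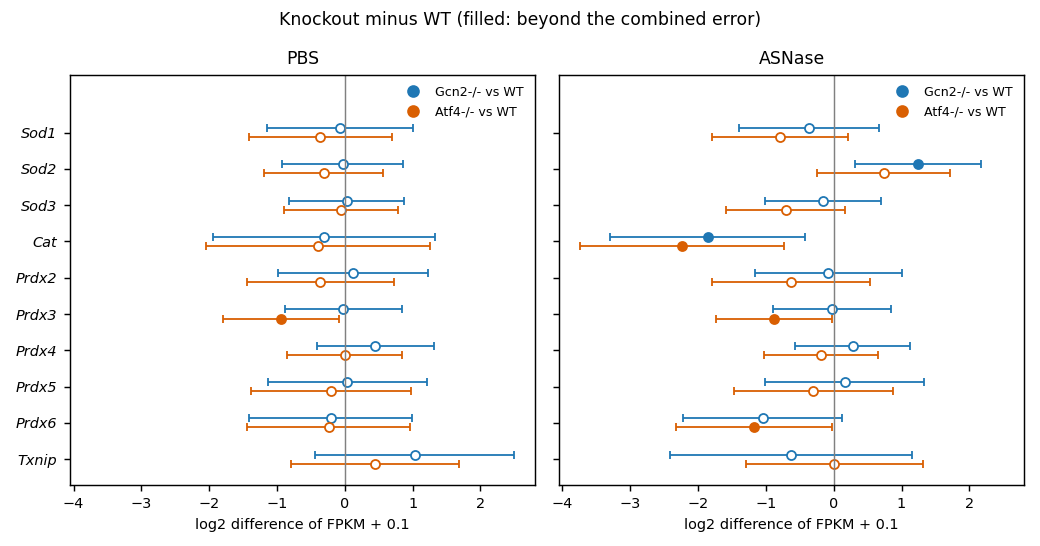
Log2 difference of FPKM + 0.1, knockout minus WT (x axis), for the 10 genes (y axis) under PBS (left) and ASNase (right), Gcn2-/- in blue and Atf4-/- in orange; bars are the combined error, and filled points lie beyond it. Under PBS the filled point is Prdx3 in Atf4-/- (-0.94), and under ASNase Cat is filled in both knockouts (-1.86 and -2.24).

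Whether the response to ASNase differed between strains was asked by setting the difference of the log2 changes against the error of the 4 values. None of the 10 genes exceeded it, where 5.54% of 8650 genes did in Gcn2-/- against WT, 9.08% of 8770 in Atf4-/- against WT and 5.14% of 8911 in Atf4-/- against Gcn2-/-. Sod2 came nearest, with a response larger by 1.27 in Gcn2-/- than in WT and an error of 1.29. For Cat the response was more negative than in WT by -1.55 in Gcn2-/- (error 2.18) and by -1.85 in Atf4-/- (error 2.23). A larger response of these genes in the knockouts was therefore not shown at this precision.

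Sod1, the cytosolic dismutase, was at 1519 FPKM under PBS and 1363 after ASNase in WT liver, 1448 and 1063 in Gcn2-/- liver, and 1186 and 787 in Atf4-/- liver. The values were lower after ASNase in each strain, with log2 differences of -0.16, -0.45 and -0.59, each within an error of 0.99 to 1.07. Ccs, the chaperone that inserts copper into Sod1, was at 150, 133, 174, 87.1, 134 and 58.1 FPKM in the same order of groups. Ccs was lower after ASNase by -1.0 on the log2 scale in Gcn2-/- (error 0.87) and by -1.20 in Atf4-/- (error 0.85), beyond the combined error in both, with overlapping intervals.

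Sod2, the mitochondrial dismutase, was at 47.0 FPKM (interval 26.2 to 67.7) under PBS and 45.2 (25.7 to 64.8) after ASNase in WT liver, 46.0 (25.9 to 66.2) and 107 (55.3 to 159) in Gcn2-/- liver, and 38.0 (21.7 to 54.2) and 75.4 (36.0 to 115) in Atf4-/- liver. Both knockout groups given ASNase were above the other 4, and their intervals overlapped those of their own PBS groups. The level was 2.32-fold that of PBS in Gcn2-/- (log2 difference 1.21, error 0.94) and 1.98-fold in Atf4-/- (0.99, error 0.97). In WT it was 0.962-fold (-0.06, error 0.89). Of the eligible genes, 4.64% had a higher log2 difference than Sod2 in Gcn2-/- and 11.1% in Atf4-/-. Sod2 made up 2.98% to 3.19% of the summed FPKM of the 3 dismutases in WT, Gcn2-/- PBS and Atf4-/- PBS, and 9.08% and 8.69% in the knockout groups given ASNase. Sod2 is a known target of NF-kB. The 6 acute phase and NF-kB target genes of 8 with estimates in all groups summed to 86.9 FPKM under PBS and 71.2 after ASNase in WT liver, 1854 and 28236 in Gcn2-/- liver, and 541 and 13020 in Atf4-/- liver. Most of this sum came from Saa3, Lcn2 and Orm2, at 876, 472 and 470 FPKM in Gcn2-/- PBS and 12427, 9990 and 5535 in Gcn2-/- ASNase. The lower bound was 0 for Saa3 and Lcn2 in Gcn2-/- ASNase and for Lcn2 in Atf4-/- ASNase, so these sums are uncertain. Nfkbia, the NF-kB inhibitor that is itself a target of NF-kB, was at 22.5, 25, 24.7, 58.2, 30.3 and 70 FPKM in the usual order, highest in the same 2 groups as Sod2. Of 12 macrophage and neutrophil markers, 11 were in the table and summed to 100 to 199 FPKM, with 176 in Gcn2-/- ASNase and 145 in Atf4-/- ASNase, and the neutrophil gene Ly6g was at 0 in every group but Gcn2-/- PBS. Members of this list went opposite ways, with Marco, a macrophage receptor, at 118 of the 176 FPKM and 67.3 of the 145, against 3.45 to 9.22 in the other groups. Clec4f, a marker of Kupffer cells, was at 67.3 FPKM under PBS and 15.9 after ASNase in Gcn2-/- and at 102 and 30.1 in Atf4-/-. Of 8 eligible markers, 4 were lower after ASNase in Gcn2-/- and 7 in Atf4-/-. The part of NF-kB or of these cells in the level of Sod2 was not tested, and in bulk liver fewer cells of a type and less RNA per cell cannot be told apart.

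Sod3, the secreted dismutase, was the least abundant, at 10.7, 8.78, 10.9, 7.86, 10.2 and 5.32 FPKM in the order WT PBS, WT ASNase, Gcn2-/- PBS, Gcn2-/- ASNase, Atf4-/- PBS and Atf4-/- ASNase. All 3 ASNase groups were below all 3 PBS groups. The log2 difference was -0.28 in WT (error 0.86), -0.47 in Gcn2-/- (error 0.86) and -0.93 in Atf4-/- (error 0.86), beyond the error in the last only. Sod3 is made in vessel walls among other sites. The 8 endothelium and vessel wall markers summed to 62.5, 81.9, 30.3, 37.9, 51.2 and 43.3 FPKM in the same order, which is not the order of Sod3, and their part was not tested.

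Cat was at 1191 FPKM (interval 179 to 2203) under PBS and 1035 (212 to 1858) after ASNase in WT liver, 961 (234 to 1688) and 284 (113 to 456) in Gcn2-/- liver, and 905 (208 to 1602) and 219 (72.8 to 365) in Atf4-/- liver. The knockout groups given ASNase were far below the other 4, yet their intervals overlapped those of every other group, because the bounds of the high values were wide (75.6% to 84.9% of the value). Cat was at 0.296 of its PBS level after ASNase in Gcn2-/- (log2 difference -1.76, error 1.40) and at 0.242 in Atf4-/- (-2.05, error 1.47), and at 0.869 in WT (-0.20, error 1.68). Of the eligible genes, 97.5% had a higher log2 difference in Gcn2-/- and 95.9% in Atf4-/-. Against WT under ASNase, the difference was -1.86 in Gcn2-/- (error 1.44) and -2.24 in Atf4-/- (error 1.5). Cat stood at 0.664 to 0.784 of the FPKM of Sod1 in WT livers and under PBS, and at 0.267 and 0.278 in the knockout groups given ASNase. Cat is also abundant in red cells. The 5 of 9 erythroid markers in the table summed to 136, 75.2, 80.6, 8.36, 110 and 4.29 FPKM in the usual order, lowest in the same 2 groups, where Slc4a1 was at 0 (Gcn2-/- ASNase) or 0.00249 FPKM. The 6 hepatocyte markers summed to 17395, 14444, 18436, 9329, 15950 and 7484 FPKM, again lowest in these groups. Apoa1, Ttr and Cyp2e1 were lower there than under PBS, whereas Tat, tyrosine aminotransferase, was at 613 FPKM under PBS and 1987 after ASNase in Gcn2-/- and at 952 and 2013 in Atf4-/-. Hnf4a, a hepatocyte transcription factor, was at 149 and 145 FPKM in Gcn2-/- and at 165 and 213 in Atf4-/-. The part of either in the level of Cat was not tested.

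The peroxiredoxins other than Prdx1 summed to 1092 FPKM under PBS and 953 after ASNase in WT liver, 1105 and 827 in Gcn2-/- liver, and 909 and 612 in Atf4-/- liver. The sum was lower after ASNase in each strain. Prdx5 and Prdx6 together made up most of it in every group.

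Prdx2, a cytosolic peroxiredoxin and a major protein of red cells, was at 133, 122, 145, 116, 104 and 79.1 FPKM in the order WT PBS, WT ASNase, Gcn2-/- PBS, Gcn2-/- ASNase, Atf4-/- PBS and Atf4-/- ASNase. It was lowest in Atf4-/- ASNase. No comparison exceeded its error, and the differences after ASNase were -0.13, -0.32 and -0.39 on the log2 scale in WT, Gcn2-/- and Atf4-/-. In Gcn2-/- ASNase and Atf4-/- ASNase the 5 of 9 erythroid markers in the table summed to 8.36 and 4.29 FPKM, with Prdx2 at 116 and 79.1. The part of red cells in the level of Prdx2 was not tested.

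Prdx3, the mitochondrial peroxiredoxin, was lower in Atf4-/- liver than in the other strains under both treatments. It was at 90.1 FPKM (interval 51.9 to 128) under PBS and 86.6 (50.1 to 123) after ASNase in WT liver, 88.9 (51.4 to 126) and 84.7 (48.2 to 121) in Gcn2-/- liver, and 46.9 (27.6 to 66.1) and 46.9 (27.0 to 66.9) in Atf4-/- liver. Both Atf4-/- groups were below the other 4, with overlapping intervals. Atf4-/- was at 0.52 of WT under PBS (log2 difference -0.94, error 0.85) and at 0.542 under ASNase (-0.88, error 0.86). Against Gcn2-/- the difference was -0.92 under PBS (error 0.85) and -0.85 under ASNase (error 0.87), beyond the error in the first only. The differences after ASNase were -0.06, -0.07 and 0.00 in WT, Gcn2-/- and Atf4-/-, each with an error of 0.85 to 0.87. Txn2, the mitochondrial thioredoxin that recharges Prdx3, was at 187, 173, 212, 178, 148 and 168 FPKM in the usual order. Both Atf4-/- groups were again the lowest, by less than for Prdx3, and no difference exceeded its error (-0.34 from WT under PBS, error 1.24, and -0.04 under ASNase, error 1.24). Txnrd2, the mitochondrial thioredoxin reductase, was at 35.0, 32.1, 35.5, 22.3, 34.5 and 20.0 FPKM, lowest in the knockout groups given ASNase, with an error above 8 in every comparison.

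Prdx4, the peroxiredoxin of the endoplasmic reticulum (ER), was at 110 FPKM under PBS and 79.1 after ASNase in WT liver, 151 and 95.9 in Gcn2-/- liver, and 110 and 69.3 in Atf4-/- liver. It was lower after ASNase in each strain, at 0.72, 0.637 and 0.631 of the PBS level, and each difference was within its error (-0.47, -0.65 and -0.66 on the log2 scale, errors 0.84, 0.87 and 0.85). Prdx4 and the oxidoreductases Ero1l and P4hb share the task of forming disulphide bonds. The 10 genes of oxidative folding in the ER had a median log2 difference after ASNase of -0.12 in WT, 0.66 in Gcn2-/- and 0.48 in Atf4-/-, beside -0.01, 0.02 and 0.08 for all eligible genes. None was called, beside 0.881%, 3.69% and 7.37% of all genes in WT, Gcn2-/- and Atf4-/-. All 10 were higher in Gcn2-/-, 2 of them beyond the combined error, beside 11.0% of all genes. In Atf4-/-, 9 of 10 were higher, with 0 beyond the combined error, beside 18.2% of all genes. P4hb was at 693, 684, 755, 1201, 575 and 1250 FPKM and Ero1l at 6.67, 6.68, 6.88, 14.3, 5.47 and 8.09 in the usual order. The lower bound of P4hb was 0 in Gcn2-/- PBS and in both knockout groups given ASNase. Prdx4 thus lay on the other side of 0 from the median of the 10 folding genes in both knockouts.

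Prdx5, found in mitochondria, peroxisomes and cytosol, varied least of the 10, at 392, 329, 404, 369, 339 and 268 FPKM in the order WT PBS, WT ASNase, Gcn2-/- PBS, Gcn2-/- ASNase, Atf4-/- PBS and Atf4-/- ASNase. No difference exceeded its error, the widest being -0.46 between Atf4-/- and Gcn2-/- under ASNase (error 1.16). Prdx6, which also has phospholipase activity and is recharged with the help of glutathione, was at 366, 336, 316, 162, 309 and 149 FPKM in that order. Its 2 knockout groups given ASNase were the lowest, at 0.513 and 0.482 of their PBS levels, within the error (log2 differences -0.96 and -1.05, errors 1.17 and 1.16). Against WT under ASNase, Prdx6 was lower by -1.17 in Atf4-/- (error 1.15), beyond the error, and by -1.05 in Gcn2-/- (error 1.17), within it. Prdx6 stood at 0.781 to 1.02 of the FPKM of Prdx5 in WT livers and under PBS, and at 0.44 and 0.557 in Gcn2-/- ASNase and Atf4-/- ASNase. Gstp1, a glutathione transferase that recharges Prdx6, was at 796, 550, 478, 272, 1123 and 127 FPKM and was called lower after ASNase in Atf4-/- (log2 difference -3.15, error 1.12). It has a near-identical neighbour, Gstp2, so its level is uncertain.

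Txnip was at 35.6 FPKM (interval 12.4 to 58.8) under PBS and 38.0 (14.6 to 61.3) after ASNase in WT liver, 73.0 (15.6 to 130) and 24.5 (0 to 51.0) in Gcn2-/- liver, and 48.7 (21.0 to 76.4) and 38.3 (13.0 to 63.7) in Atf4-/- liver. Gcn2-/- livers held both the highest and the lowest value. After ASNase the log2 difference was 0.09 in WT (error 1.29), -1.57 in Gcn2-/- (error 1.92) and -0.35 in Atf4-/- (error 1.26), all within the error. Gcn2-/- PBS was at 2.05-fold of WT PBS (log2 difference 1.03, error 1.47). The alpha-arrestin Arrdc3 had the same order of its extremes, at 23.7, 24.9, 109, 8.35, 46.2 and 9.9 FPKM. Arrdc3 was called higher in Gcn2-/- PBS than in WT PBS (log2 difference 2.2, error 1.16) and fell after ASNase in Gcn2-/- (-3.69, error 1.07). Arrdc4, like Txnip a known target of the glucose-sensing factor ChREBP, was at 5.97, 6.66, 6.81, 4.12, 6.58 and 25.3 FPKM, highest in Atf4-/- ASNase, where Txnip was not. Mlxipl, which encodes ChREBP, was at 86.7, 100, 93.5, 36.7, 128 and 93.6 FPKM, lowest in Gcn2-/- ASNase as Txnip was, and so was its target Pklr, a pyruvate kinase, at 86.4, 101, 58.7, 29.4, 86.9 and 43.5. The lower bound of Pklr was 0 in every group, so its order is uncertain. Of the list's 9 genes, 1 of 7 eligible was called lower after ASNase in Gcn2-/- (Arrdc3), and 0 of 8 were called in WT or in Atf4-/-, beside 3.69%, 0.881% and 7.37% of all genes in Gcn2-/-, WT and Atf4-/-. In Gcn2-/- PBS against WT PBS, 1 of 7 was called higher (Arrdc3), beside 1.04% of all genes called in either direction.

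**Figure D4:**
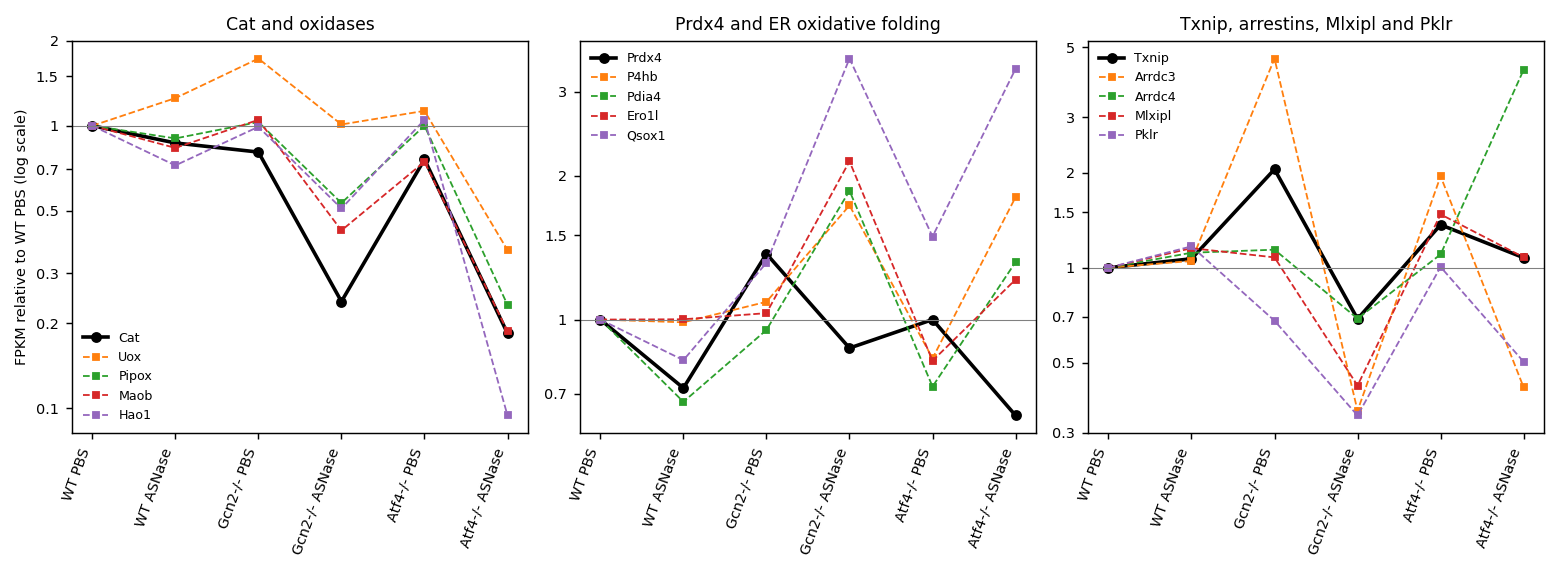
FPKM relative to WT PBS (y axis, log scale) in the 6 groups (x axis) for Cat with 4 oxidases (left), Prdx4 with 4 genes of oxidative folding (middle) and Txnip with 2 arrestins, Mlxipl and Pklr (right); solid black lines are the titled genes. Cat and Maob end at a like fraction of WT PBS in Atf4-/- ASNase, Prdx4 is lower while Qsox1 is higher in the knockout groups given ASNase, and Txnip and Arrdc3 peak in Gcn2-/- PBS.

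Genes that make the substrate of catalase were mostly lower after ASNase as well. Of 15 oxidases that form hydrogen peroxide, 9 of 14 eligible were lower after ASNase in WT (median log2 difference -0.13), 11 of 14 in Gcn2-/- (-0.86) and 12 of 13 in Atf4-/- (-1.44), beside medians of -0.01, 0.02 and 0.08 for all genes. Those called lower numbered 0 in WT, 1 in Gcn2-/- (Hao2, a hydroxyacid oxidase, 10.6 to 0.137 FPKM) and 4 in Atf4-/-, beside 0.881%, 3.69% and 7.37% of all genes called. The latter were Hao1, glycolate oxidase, at 125 FPKM under PBS and 11.2 after ASNase, Pipox, which oxidises pipecolic acid and sarcosine, at 163 and 37.8, Maob, the mitochondrial monoamine oxidase B, at 75.3 and 18.9, and Aox1, an aldehyde oxidase, at 14.3 and 4.01. None of the 15 was called higher. Uox, the peroxisomal urate oxidase, was at 2093, 2622, 3620, 2115, 2363 and 759 FPKM in the usual order, lowest in Atf4-/- ASNase. The lower bound of Uox was 0 in every group, so its order is uncertain. Of 17 genes of peroxisome import and membrane, 16 were in the table and none was called in the 3 ASNase comparisons. Beside this, 0.881%, 3.69% and 7.37% of all genes were called in WT, Gcn2-/- and Atf4-/-. Their log2 differences had a median of -0.04 for WT, of -0.30 for Gcn2-/- and of -0.68 for Atf4-/- livers, with 12, 12 and 15 of 16 lower. Pex5, the receptor that imports catalase, was at 38.6, 37.8, 39.0, 36.2, 36.6 and 28.0 FPKM, which is a narrower range than that of Cat.

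The 16 thioredoxin and peroxiredoxin partners had median log2 differences after ASNase of -0.08 in WT, -0.48 in Gcn2-/- and -0.40 in Atf4-/-. Called genes numbered 0 of 16 in WT, 0 of 15 in Gcn2-/- and 2 of 16 in Atf4-/-, both lower, beside 0.881%, 3.69% and 7.37% of all genes called. They were Gstp1 and Glrx, the cytosolic glutaredoxin, which was at 32.1 FPKM under PBS and 10.6 after ASNase. Prdx1, the most abundant peroxiredoxin, was at 1323, 1066, 1337, 959, 1108 and 603 FPKM, lowest in Atf4-/- ASNase like most of the other family members. Thioredoxin Txn1 was at 231, 166, 218, 215, 186 and 135 FPKM and its reductase Txnrd1 at 37.4, 37.8, 32.2, 38.6, 36.5 and 46.2. Srxn1, the sulfiredoxin that repairs over-oxidised peroxiredoxins, was at 19.9, 21.0, 16.9, 21.1, 13.4 and 25.8 FPKM. Unlike Prdx1 and Prdx2, Txnrd1 and Srxn1 were highest in Atf4-/- ASNase, with no call.

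For the 6 genes that varied at least 2-fold over the groups, the 3 protein-coding genes with the nearest profile were taken from 5985 others, by the root mean square difference of centred log2 levels over the 6 groups. For Sod2 they were Hspa13 (0.03), Sec22b (0.08) and Sec23b (0.09). For Cat they were Macrod1 (0.05), Ltbp4 (0.08) and Col14a1 (0.11). For Prdx6 they were Ivd (0.06), Mid1ip1 (0.06) and Coq10a (0.07), and for Sod3 Rnf5 (0.05), 9530008L14Rik (0.05) and Fxyd1 (0.06). For Prdx4 they were Slc35a1 (0.09), Gm2382 (0.09) and Depdc7 (0.10). Txnip had no profile as near, its nearest being Ocln (0.18), Gm14295 (0.21) and Slc24a6 (0.22). Among the 10 genes themselves, Sod1 and Prdx2 were nearest (0.12), as were Prdx2 and Prdx5 (0.12), and Sod2 and Cat were farthest apart (1.45). These distances describe 6 group values, and none carries a test.

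**Figure D5:**
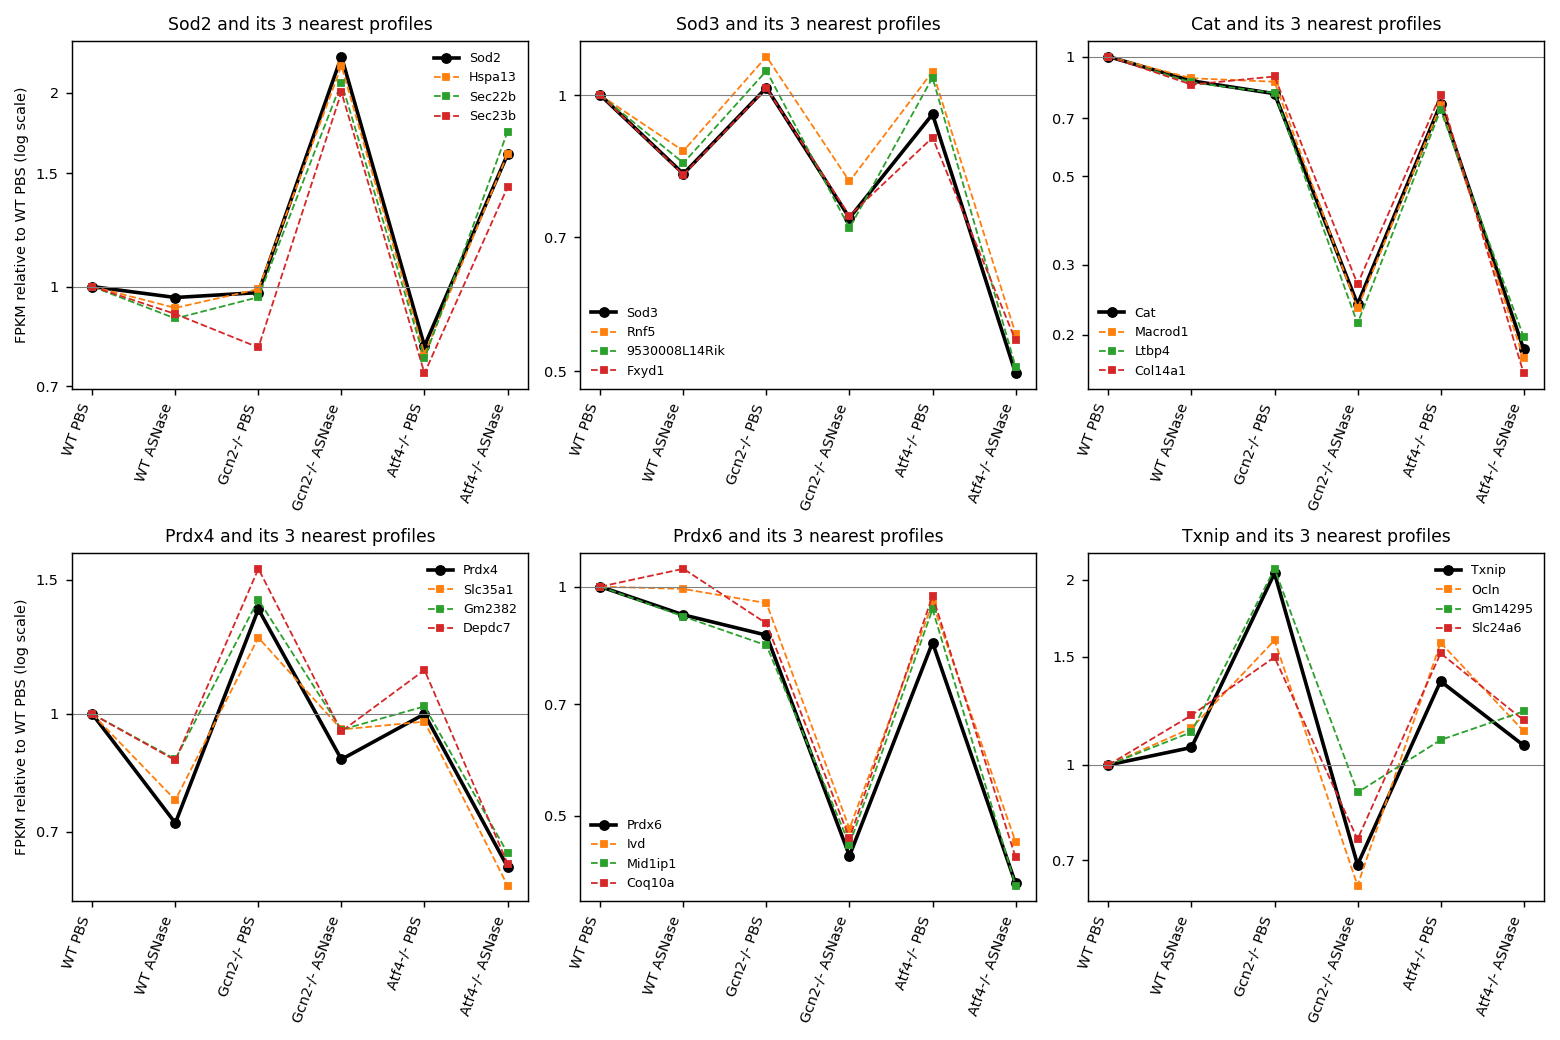
FPKM relative to WT PBS (y axis, log scale) in the 6 groups (x axis) for Sod2, Sod3, Cat, Prdx4, Prdx6 and Txnip (solid black) and the 3 genes nearest to each (dashed). The dashed lines stay close to Sod2, Cat and Prdx6, and spread more widely around Txnip, whose nearest gene lies at 0.18.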

How the data were processed

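RNA-Seq of liver poly-A RNA (100 bp single-end reads) was deposited as 1 table. The authors used TopHat with Bowtie (build mm10), then Cufflinks, Cuffmerge and, for FPKM, Cuffdiff. The level of the interval is not given in the sources used here. The deposited FPKM and both bounds are 1 value per group of 3 libraries, and 0 value columns were left outside the map. Groups came from the labels. Levels were compared as log2(FPKM + 0.1) in Python with pandas and numpy, over all genes whose 2 values had the status OK, were above 0 and had FPKM over 3 in either group. The error of a value was the distance from value to upper bound divided by FPKM + 0.1 and ln 2. No p-value was computed, and the scripts were tested on simulated data. The genes, lists and motifs were chosen with earlier results of these data known. All 10 genes are named in all groups, and list genes are named where called or where they act with one of the 10. Protein sequences were not analysed here, and 1 gene of the oxidase list, counted in its totals, is not reported here by its values. Alternatives were other pseudocounts, filters, fold limits, scaling and the combined error.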

Additional observations from a re-analysis of the deposited data

How the results depend on the processing

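None of the 10 genes was called, or had separate intervals, in any of the 9 comparisons, and these counts of 0 were the same with a pseudocount of 1 or 0.01, with FPKM over 1, with no filter on FPKM, with a log2 fold limit of 1 and with median-ratio scaling (factors 0.978 to 1.03 over 7662 genes), as far as each was run for the rule. No p-value could be computed from the group values to set beside them. The paper's own Cuffdiff calls by false discovery rate were not used here. It reports more genes changed by ASNase in each strain than the rule of separate intervals called, so this rule is the stricter. With the combined error in place of separate intervals, 1 gene (Cat) was called in ASNase against PBS in Gcn2-/- and 1 (Cat) in Atf4-/-. Under ASNase, 1 (Cat) was called in Gcn2-/- against WT and 1 (Cat) in Atf4-/- against WT. The share of all genes called by this rule was not computed. Without the fold limit, 11.0% and 18.2% of all genes exceeded the combined error after ASNase in Gcn2-/- and Atf4-/-. Against WT under ASNase, 11.4% and 18.9% did in Gcn2-/- and Atf4-/-. Whatever the fold, the counts were then 2 in Gcn2-/- and 3 in Atf4-/- after ASNase, 1 in Atf4-/- against WT and 1 in Atf4-/- against Gcn2-/- under PBS, and 2 in Gcn2-/- against WT and 3 in Atf4-/- against WT under ASNase. The counts of response differences stayed at 0 with both pseudocounts and with scaling. Of 90 log2 differences, 6 changed sign with scaling, all of them under 0.05 in size without it, and 0 with either pseudocount; the largest shift was 0.10. No paired analysis was possible because the table holds 1 value per group. For the same reason no mouse could be left out.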

Other observations

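Further genes that make or remove peroxides were read in the same table. Of 6 glutathione peroxidases, which reduce peroxides with glutathione, Gpx1, the main cytosolic enzyme, was at 1673 FPKM under PBS and 1203 after ASNase in WT liver, 1743 and 768 in Gcn2-/- liver, and 1374 and 320 in Atf4-/- liver. Gpx1 was called lower after ASNase in Atf4-/- (log2 difference -2.10, error 1.09), with an overlap of intervals in Gcn2-/- (-1.18, error 1.18). Gpx3, the secreted enzyme, was at 4.84, 5.29, 3.12, 9.5, 4.24 and 28.0 FPKM and was called higher after ASNase in Gcn2-/- (1.57, error 1.03) and in Atf4-/- (2.69, error 0.96). Gpx4, which reduces lipid peroxides, was at 404, 366, 536, 297, 324 and 294 FPKM, with no call. After ASNase in Gcn2-/-, 1 of 4 eligible genes of this list was called higher, beside 3.69% of all genes called in either direction. In Atf4-/-, 1 of 3 eligible was called higher and 1 lower, beside 7.37% of all genes.

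Of 7 genes of the superoxide-forming NADPH oxidases, 6 were eligible in Gcn2-/- after ASNase, with 2 called higher and 1 lower, and 4 were eligible in Atf4-/-, with 0 called, beside 3.69% and 7.37% of all genes called in these comparisons. The catalytic subunit Cybb of phagocytes was at 4.5, 3.21, 2.56, 9.68, 5.54 and 3.99 FPKM, and Rac2 at 2.65, 1.46, 1.74, 6.71, 2.92 and 2.35, both called higher in Gcn2-/-. Nox4, which forms mainly hydrogen peroxide, was at 6.17, 8.89, 6.92, 1.04, 15.2 and 5.72 FPKM and fell in Gcn2-/- (log2 difference -2.62, error 1.1). Nox4 was also lower after ASNase in Atf4-/-, with separate intervals (8.49 to 22 and 3.07 to 8.37) but short of the fold limit. Among 8 eligible markers of macrophages and neutrophils, 4 were higher and 4 lower after ASNase in Gcn2-/-, with Marco at 8.32 and 118 FPKM, Clec4f at 67.3 and 15.9 and Vsig4 at 17.7 and 8.56. The part of such cells in Cybb and Rac2 was not tested.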
